A study of Ovis aries with 12 samples.

Results

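The change from day 16 to day 25 of gestation in Ujumqin sheep embryos was described across all genes measured well enough in those embryos. The comparison set 3 RNA-seq libraries of Ujumqin embryos at day 25 against 3 libraries of Ujumqin embryos at day 16. A gene was a member if it reached 1 FPKM (fragments scaled to transcript length and library size) in at least 3 of these 6 libraries, which held for 13571 of the 26247 genes listed. The series has 12 libraries: Ujumqin Sheep, a Mongolian breed that the submitters named as controls, and Hulunbuir Short-tail Sheep, each at 16 and 25 days with 3 libraries a group. The labels name no transgene, mutation or drug, and the embryos were described as dissociated with enzymes before RNA was taken. The labels did not say whether the libraries came from separate embryos, so the p-values measure only the spread between these libraries. They also did not say whether the membranes around the embryo were removed.

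Between these ages the sheep conceptus passes from an elongated sac, mostly trophoblast and yolk sac around a small embryo, to an embryo with limb buds, a beating heart, a neural tube with neurons and segmented muscle precursors. Extraembryonic endoderm of the yolk sac makes plasma proteins, and the first red cells form beside it before the liver takes over both roles. LIN28A and NR6A1 are regulators of early developmental timing, whereas HOX genes give position along the body axis. FPKM values compare genes per length. A log2 change is the fitted change of a gene between the groups, positive where day 25 was higher, with its standard error (SE). In bulk libraries, fewer cells of a type and less RNA per cell cannot be told apart.

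The day 16 libraries held 49944437 to 55455815 counts and the day 25 libraries 30464606 to 33171681. Age separated the libraries along the first principal component, which carried 79.4% of the variance, and the second component (12.6%) set day 16 replicate 3 apart at -58.7, against 10.4 and 41.0 for the others of its age. The biological coefficient of variation was 40.3% among the day 16 libraries and 21.0% among the day 25 libraries. The day 16 libraries differed in makeup. Replicate 2 was highest in the trophoblast list, whose mean log2(FPKM + 1) was 5.41, 6.04 and 4.41 in the day 16 libraries and 3.1, 3.35 and 3.31 in the day 25 libraries. Replicate 3 was highest in the yolk sac and liver list, at 6.57, 6.45 and 7.32 in the day 16 libraries and 5.23, 4.88 and 4.76 in the day 25 libraries. It was highest in the erythroid list too, at 4.58, 4.38 and 5.65 in the day 16 libraries and 4.11, 4.09 and 4.05 in the day 25 libraries. The part that this makeup plays in single genes was not tested beyond leaving each library out.

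**Figure D1:**
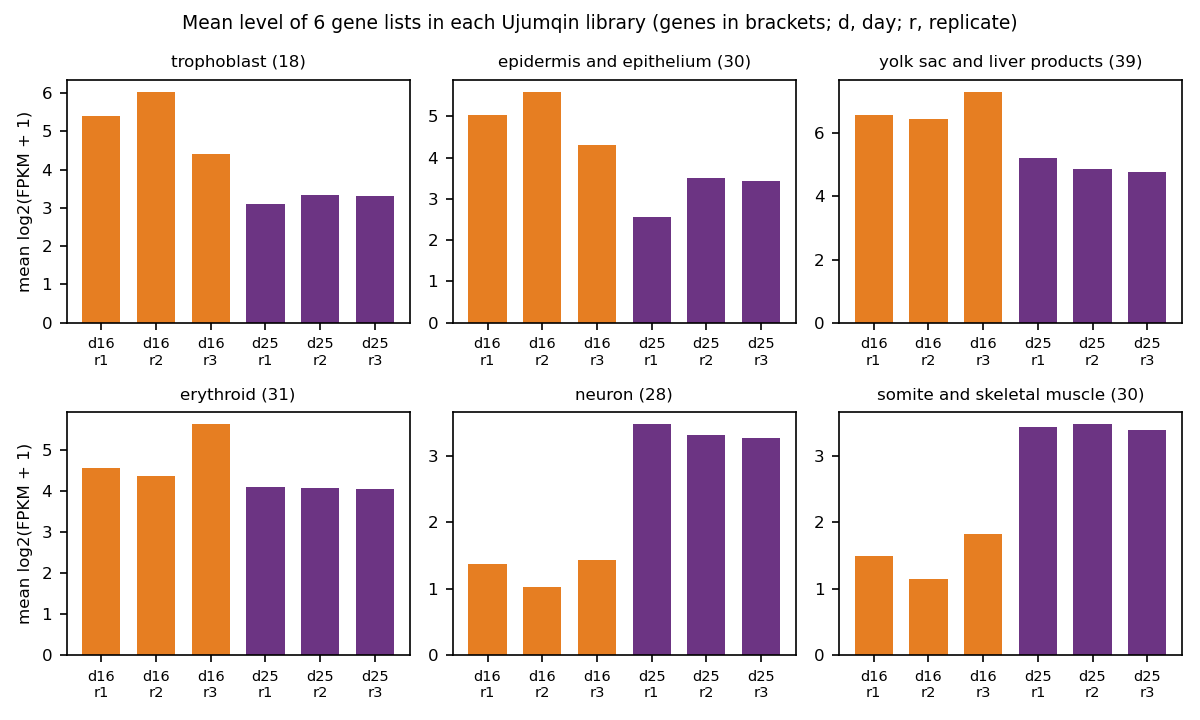
Mean log2(FPKM + 1) of 6 gene lists (y axis, from 0) in each Ujumqin library (x axis). Orange bars are the day 16 and purple bars the day 25 libraries. Trophoblast and epithelial genes peaked in day 16 replicate 2, yolk sac and erythroid genes in day 16 replicate 3, and neuron and muscle genes stood higher in every day 25 library.

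Most genes differed between the ages. edgeR's quasi-likelihood test called 4104 genes higher at day 25 (30.2% of those tested) and 4412 lower (32.5%), together 8516 or 62.8%, at a Benjamini-Hochberg adjusted p under 0.05. Of these, 1182 rose and 1292 fell at least 4-fold, and 283 rose and 214 fell at least 16-fold. The median log2 change of all genes tested was -0.07. Since 62.8% of genes were called, a gene list is described below by its counts and median beside these shares, and a share near them is no feature of the list. A total of 461 genes passed the filter only through the day 16 libraries and 546 only through the day 25 libraries, and such genes had to differ. They read at least 1 FPKM in all libraries of 1 age and less in all of the other. NR6A1, HNF4A, MYH3, STMN4, OGN, APOD, SIX2, TBX15 and other genes named below were of this kind. Their p-values are no separate support. Lists below held at most 4 of either kind unless their number is given. The change also ran with gene length. In 10 equal classes of genes by implied transcript length, the shortest (up to 474 bases) had a median log2 change of 0.97, and class 8 (2536 to 3350 bases) had -0.43. Hulunbuir showed a slope in the same direction, from 0.48 in the shortest class to -0.37 in the longest. With this trend removed from each library, a step chosen after seeing the data, 4164 genes were called higher and 4096 lower.

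**Figure D2:**
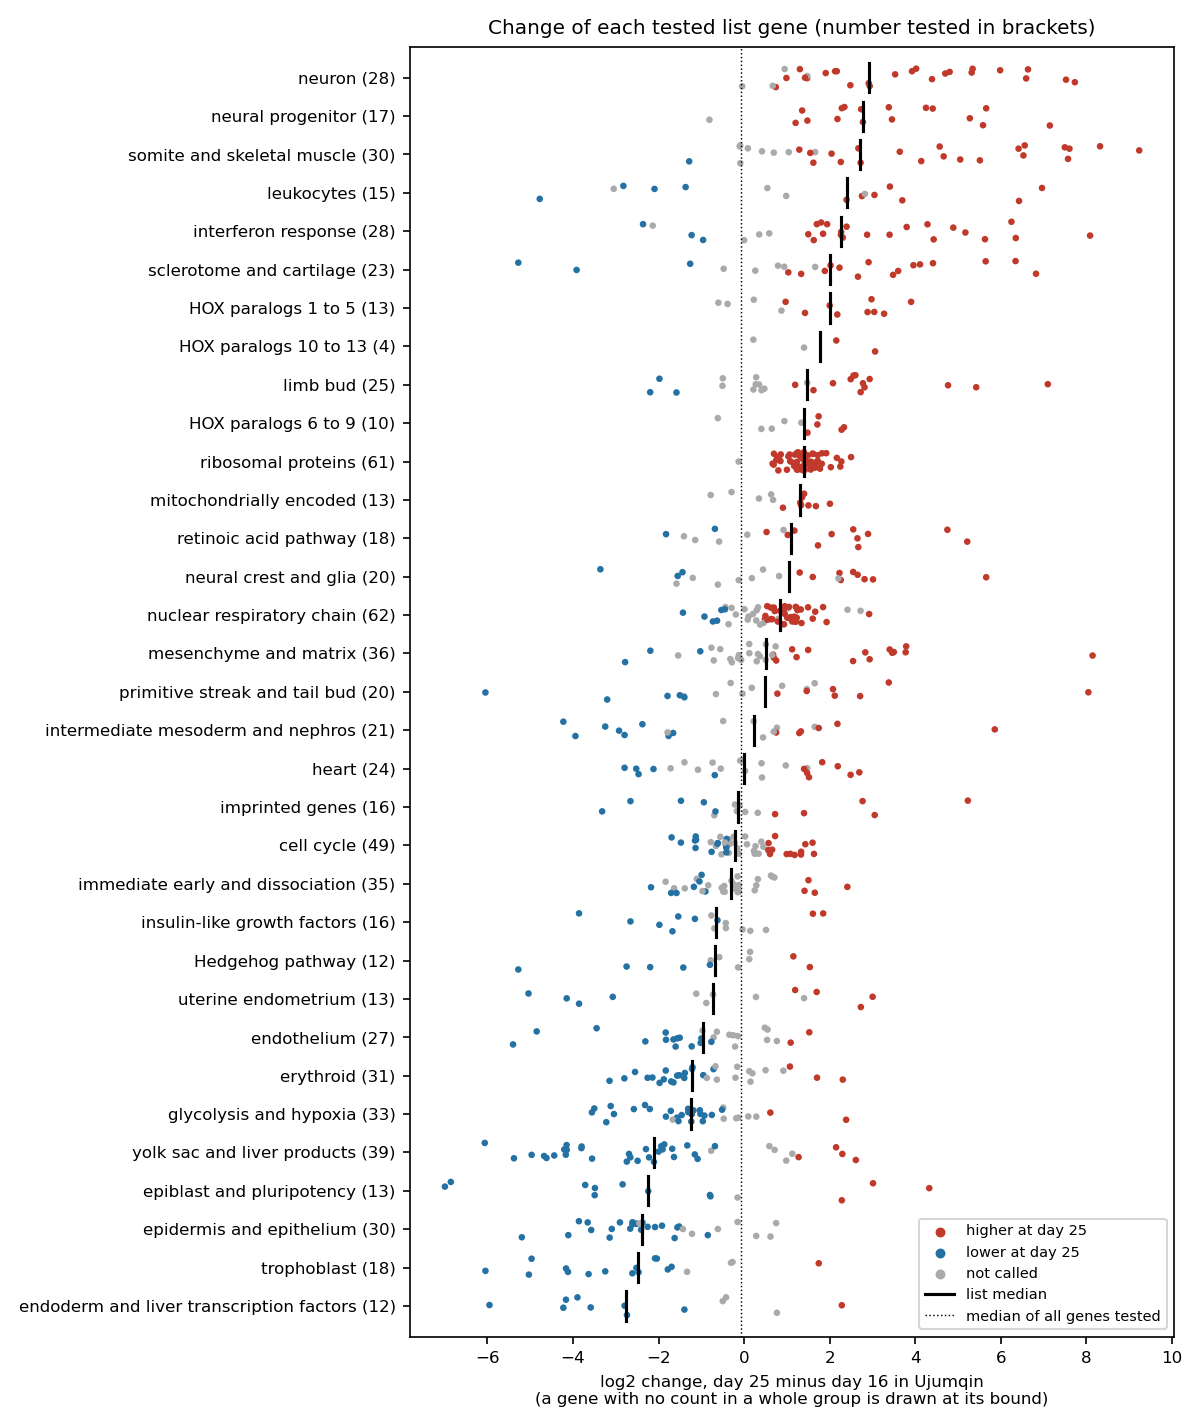
Fitted log2 change from day 16 to day 25 in Ujumqin (x axis) of every tested gene of 33 lists (y axis, sorted by median). Red genes were called higher at day 25, blue genes lower and grey genes neither, and black bars are list medians. Neuron, neural progenitor and muscle lists lie at the top with medians between 2.70 and 2.92, and endoderm factor, trophoblast and epithelium lists at the bottom.

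Genes of early embryonic timing and pluripotency were among the largest falls. LIN28A (chromosome 2, 239577200 to 239590412, minus strand, build Oar_v3.1), an RNA-binding protein that blocks maturation of let-7 microRNAs, read 186, 71.1 and 155 FPKM at day 16 and 1.02, 1.24 and 0.582 at day 25. Every day 16 library lay far above every day 25 library, a log2 change of -7.00 ± 0.48 (SE, adjusted p = 0.00014). NR6A1 (chromosome 3, 11238597 to 11271556, plus strand), an orphan nuclear receptor that represses POU5F1 and acts in trunk elongation, fell evenly from 29.7, 31.2 and 26.3 FPKM to 0.399, 0.268 and 0.309 FPKM. Its change was -6.32 ± 0.24 (SE, adjusted p = 5.8e-05), with little spread inside either group. LIN28B, the paralog of LIN28A, went from 24.98, 11.9 and 32.6 FPKM to 3.46, 2.64 and 2.64 FPKM. SALL4, a zinc finger factor of the pluripotency network, went from 11.4, 7.75 and 12.8 FPKM to 0.954, 0.752 and 0.862 FPKM. TFCP2L1 and ZFP42, factors of the naive pluripotent state that trophoblast also expresses, changed by -6.86 ± 0.89 (SE, adjusted p = 0.00076) and -3.72 ± 0.65 (SE, adjusted p = 0.0024). POU5F1 itself was low, with 4.44, 6.07 and 1.24 FPKM at day 16 and 0.414, 0.311 and 0.177 at day 25. In the epiblast and pluripotency list, 13 of 23 genes were tested, 9 were called lower and 3 higher, with a median of -2.24. The 3 that rose are also factors of neural or neural crest tissue. SOX2 went from 4.6, 1.76 and 5.79 FPKM to 24.1, 15.5 and 14.3 FPKM, while OTX2 of the forebrain and midbrain and FOXD3 of the early neural crest changed by 4.33 ± 1.04 (SE, adjusted p = 0.0095) and 3.01 ± 0.46 (SE, adjusted p = 0.0013). NANOG had at most a trace of signal in all 6 libraries and was not tested.

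Factors of the primitive streak and tail bud, where the trunk and tail are laid down, moved in both directions. TBXT, the brachyury factor of streak and notochord, read 3.37, 1.28 and 1.15 FPKM at day 16 and 0.0691, 0.0905 and 0.354 at day 25. GREB1 fell from 12.4, 4.16 and 8.21 FPKM to 3.26, 2.28 and 2.41 FPKM. DLL3, a Notch ligand of the presomitic mesoderm and of new neurons, rose from 5.48, 2.26 and 2.03 FPKM to 19.7, 22.5 and 16.3 FPKM, a change of 2.71 ± 0.42 (SE, adjusted p = 0.0015). WNT5B, a ligand of the planar polarity pathway, changed by 2.12 ± 0.41 (SE, adjusted p = 0.0037). GSC (chromosome 18, 58328159 to 58329735, minus strand), a homeobox gene of the gastrula organizer that is used again in head and limb mesenchyme, had no count in the day 16 libraries and 21.1, 19.98 and 15.05 FPKM at day 25. Against a floor of 3 counts in a library this was at least 265-fold higher. Of 20 tested genes of 32 in the list, 7 were called higher and 5 lower. The share of the list called was close to the 62.8% of all genes.

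**Figure D3:**
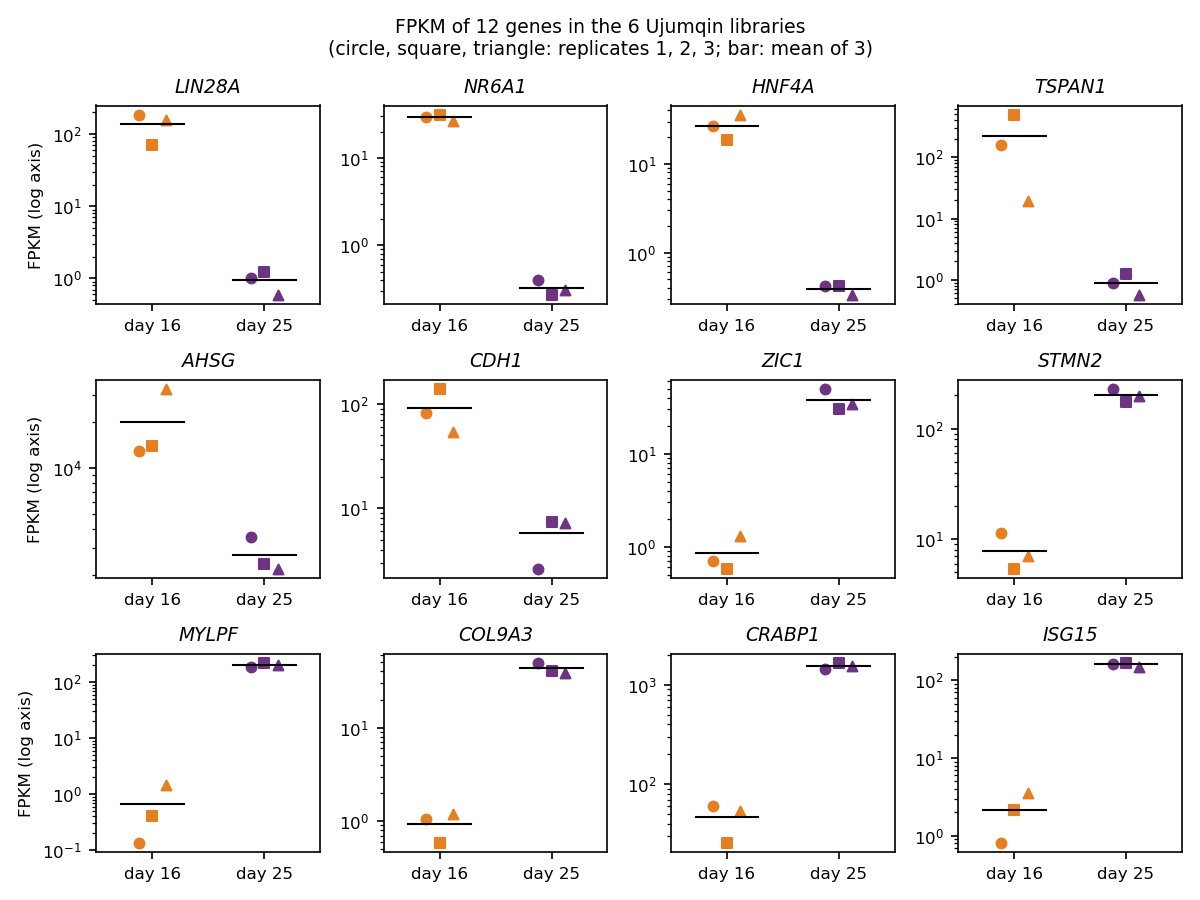
FPKM (log y axis, own scale in each panel) of 12 genes in the 6 Ujumqin libraries. Circles, squares and triangles are replicates 1, 2 and 3, orange for day 16 and purple for day 25, and bars are group means. In each of the 12 genes the 3 libraries of one age lie wholly above the 3 of the other, as in most genes tested. TSPAN1 shows the wide spread of the day 16 libraries.

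Trophoblast and epithelial genes were the other large group of falls. TSPAN1, a membrane tetraspanin of secretory epithelia, read 160.0, 496 and 19.4 FPKM at day 16 and 0.874, 1.22 and 0.559 at day 25. The 3 day 16 libraries differed among themselves by more than an order of magnitude, and the change was -7.86 ± 1.28 (SE, adjusted p = 0.0019). PLBD1, a phospholipase-like protein, went from 192, 526 and 36.1 FPKM to 5.07, 3.89 and 3.79 FPKM. FXYD4, a regulator of the sodium pump, had 28.6, 149.9 and 5.3 FPKM at day 16 and no count at day 25, at least 178-fold lower against a floor of 3 counts in a library. In all of these genes replicate 2 was the highest and replicate 3 the lowest of the day 16 libraries. PPARG, a nuclear receptor needed for elongation of the ruminant trophoblast, had the same order, with 20.5, 75.5 and 9.8 FPKM at day 16 and 1.12, 0.903 and 0.97 at day 25. CDX2, which specifies trophoblast and later the tail end of the embryo, read 13.1, 19.9 and 3.9 FPKM at day 16 and 0, 0.2 and 0.272 at day 25. Replicate 3 was again the lowest at day 16. FURIN, a protease that activates secreted signals, went from 119, 166 and 47.7 FPKM to 9.93, 7.74 and 7.23 FPKM. Of 18 trophoblast genes tested of 22, 14 were called lower and 1 higher, with a median of -2.49. Leaving out day 16 replicate 2 gave counts of 12 and 1, with a median of -1.99. The gene that rose was STAR, which carries cholesterol into mitochondria for steroid synthesis and is also used by the early gonad and adrenal, with 3.35, 2.7 and 3.41 FPKM at day 16 and 8.53, 10.3 and 9.88 at day 25. PAG4, a pregnancy-associated glycoprotein made by binucleate trophoblast cells, was seen in day 16 replicates 1 and 2 with 27.7 and 102 FPKM but at 0.0256 in replicate 3, so it did not pass the filter.

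Epithelial adhesion genes followed the same direction. CDH1, the cadherin of epithelial junctions, fell from 81.6, 140.5 and 53.99 FPKM to 2.6, 7.39 and 7.25 FPKM, a change of -3.86 ± 0.57 (SE, adjusted p = 0.0012). CLDN4, a tight junction claudin, went from 272, 412 and 78.2 FPKM to 9.19, 25.3 and 23.95 FPKM. KRT8, a keratin of simple epithelia, went from 3002, 2029.6 and 1384 FPKM at day 16 to 222, 409.7 and 385 at day 25. Replicate 1 was the lowest of the day 25 libraries in all 3 genes. KRT7, another simple keratin, showed the same library at 8.01 FPKM against 36.3 and 35.9, and missed the threshold (adjusted p = 0.067), but was called lower without that library (-0.88, adjusted p = 0.0197). With all 6 libraries it was also called lower with library totals, DESeq2, both limma fits, a fit of 12 libraries and a replicate block. Of 30 tested epithelial genes of 33, 22 were called lower and none higher (1 without day 25 replicate 1), with a median of -2.39.

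Plasma proteins of the yolk sac and liver were among the most abundant mRNAs at day 16. AHSG (chromosome 1, 198806196 to 198813239, minus strand), the carrier protein fetuin, read 12963, 13954 and 33166 FPKM at day 16 and 3575, 2367 and 2183 at day 25. It was the gene with the highest mean at day 16, and every day 16 library stood above every day 25 library, a change of -2.74 ± 0.40 (SE, adjusted p = 0.0011). ORM1, an acute phase glycoprotein, read 5111, 5924 and 14154 FPKM at day 16 and 1787, 1157 and 1112 at day 25. APOB, the structural protein of lipoproteins, fell from 97.5, 90.6 and 362 FPKM to 6.39, 6.33 and 6.44 FPKM, with a change of -4.68 ± 0.58 (SE, adjusted p = 0.00062). Replicate 3 stood well above the other day 16 libraries in these 3 genes. LRP2, the endocytic receptor megalin of the visceral yolk sac and kidney, was instead lowest in replicate 3 at day 16. It read 41.2, 55.8 and 19.96 FPKM at day 16 and 0.87, 0.904 and 0.814 at day 25. SERPINF2, an inhibitor of plasmin, changed by -4.62 ± 0.41 (SE, adjusted p = 0.00023). SERPINF1 went the other way, from 18.8, 15.4 and 69.6 FPKM to 159, 133 and 119 FPKM. This secreted inhibitor of vessel growth is also made by mesenchyme. In this list 30 of 39 tested genes were called lower and 4 higher, with a median of -2.11. The counts were 30 lower and 8 higher without day 16 replicate 3, and 2 were higher without day 25 replicate 1. ALB, the main plasma protein of the mature liver, was low at both ages with 4.47, 5.3 and 9.79 FPKM at day 16 and 5.9, 2.27 and 2.35 at day 25, and the groups overlapped (adjusted p = 0.15). Without day 25 replicate 1 it was called lower, at -1.30 (adjusted p = 0.023).

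More tested transcription factors of endoderm were called lower than higher, but many entered the test only through day 16. HNF4A (chromosome 13, 72383636 to 72412129, plus strand), a nuclear receptor of visceral endoderm and hepatocytes, read 26.7, 18.4 and 35.96 FPKM at day 16 and 0.419, 0.423 and 0.329 at day 25. All day 25 values lay below 1 FPKM, and the change was -5.95 ± 0.29 (SE, adjusted p = 7.9e-05). FOXA1, a pioneer factor of endoderm, went from 6.56, 5.67 and 12.3 FPKM to 0.675, 0.457 and 0.323 FPKM. GATA6, shared by endoderm and heart, was not called, with 29.4, 21.9 and 18.4 FPKM at day 16 and 23.99, 12.1 and 11.98 at day 25, but was lower without day 25 replicate 1 (-0.77, adjusted p = 0.0466). Of 12 tested of 20, 8 were called lower and 1 higher, with a median of -2.77. The gene called higher was SOX2, and 2 were higher without day 16 replicate 3. Of the 12 tested, 6 passed the filter only through the day 16 libraries, HNF4A and FOXA1 among them. These had to be higher at day 16, so the count of lower genes is partly set by the filter.

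More red cell genes fell than rose. HBZ, the embryonic alpha-type globin, read 866, 706 and 3283 FPKM at day 16 and 1724, 2233 and 2128 at day 25. The groups overlapped, with day 16 replicate 3 above all others, and the change of 0.50 ± 0.54 (SE, adjusted p = 0.44) was not called. Without that library the change was 1.48 (adjusted p = 0.0008). AHSP, a chaperone of alpha globin, also overlapped, with 109.6, 82.3 and 411 FPKM at day 16 and 121, 116 and 100.5 at day 25. It was not called, but was called lower with the length trend removed (edgeR, adjusted p = 0.0497). CPOX, an enzyme of heme synthesis, fell from 74.4, 53.3 and 202 FPKM to 12.97, 10.7 and 9.68 FPKM, a change of -3.15 ± 0.48 (SE, adjusted p = 0.0013). TFRC, the receptor for iron-loaded transferrin, went from 29.1, 27.8 and 44.2 FPKM to 5.25, 3.66 and 4.26 FPKM. SLC4A1, the anion exchanger band 3 of the red cell membrane, went from 38.7, 24.1 and 126 FPKM to 14.8, 10.2 and 10.3 FPKM. GYPC, a membrane glycophorin that other cells also make, rose from 13.01, 15.2 and 22.8 FPKM to 41.9, 55.1 and 52.9 FPKM. Of 31 tested erythroid genes, 18 were called lower and 3 higher, with a median of -1.21. Leaving out day 25 replicate 1, 2 or 3 lowered the count of lower genes to 8, 9 and 9. Without day 16 replicate 3 the median was -0.61, with 17 lower and 5 higher.

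Neural genes rose with few exceptions. ZIC1 (chromosome 1, 239011056 to 239014735, minus strand), a zinc finger factor of the dorsal neural tube and of somites, read 0.697, 0.572 and 1.3 FPKM at day 16 and 50.2, 30.1 and 34.3 at day 25. Its change was 5.59 ± 0.36 (SE, adjusted p = 0.00013). FABP7, the fatty acid binding protein of radial glia, rose from 2.92, 1.39 and 3.84 FPKM to 114, 139 and 123 FPKM, and HES5, a Notch target that keeps progenitors from becoming neurons, from 0, 0.566 and 3.01 FPKM to 23.5, 21.4 and 24.4 FPKM. All 16 called genes among 17 tested neural progenitor genes rose, with a median of 2.78, and 5 of the tested genes passed the filter only through the day 25 libraries. EMX1, a gene of the dorsal forebrain, was the only tested member not called (adjusted p = 0.55). Neuron genes rose as far. STMN2, a tubulin-binding protein of growing axons, read 11.3, 5.33 and 7.02 FPKM at day 16 and 230.4, 176 and 198 at day 25, a change of 4.81 ± 0.31 (SE, adjusted p = 0.00013). STMN4 of the same family rose from 0.0407, 0.105 and 0.144 FPKM to 23.5, 22.3 and 18.1 FPKM. NEFM, the medium neurofilament, went from 2.25, 1.05 and 3.01 FPKM to 82.3, 74.4 and 71.2 FPKM. Of 28 tested of 43, 24 were called higher and none lower, with a median of 2.92. Of the tested neuron genes 10 passed the filter only through the day 25 libraries.

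Neural crest and glial genes were mixed. MIA (chromosome 14, 49179581 to 49180863, plus strand), a secreted protein of cartilage and of melanocytes, rose from 1.12, 0.884 and 1.92 FPKM to 98.99, 157 and 156 FPKM, a change of 6.83 ± 0.39 (SE, adjusted p = 0.00011). TFAP2B, a crest and kidney factor, changed by 2.82 ± 0.47 (SE, adjusted p = 0.0019), and day 25 replicate 1 was the lowest of its age at 5.07 FPKM. S100B, a calcium-binding protein of glia, changed by 2.66 ± 0.47 (SE, adjusted p = 0.0026). ERBB3, a neuregulin receptor of crest cells and of many epithelia, fell from 39.2, 53.9 and 36.8 FPKM to 2.98, 4.4 and 4.13 FPKM. The list had 9 genes called higher and 3 lower of 20 tested.

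Skeletal muscle genes went from near absence to moderate levels. MYLPF (chromosome 24, 26577862 to 26579570, plus strand), the regulatory light chain of fast muscle myosin, read 0.132, 0.398 and 1.46 FPKM at day 16 and 184, 224 and 199 at day 25. MYH3, the embryonic myosin heavy chain, read 0, 0.12 and 0.124 FPKM at day 16 and 38.2, 49.5 and 48.6 at day 25. TNNC2, troponin C of fast fibres, had no count in day 16 replicates 1 and 2, 0.761 FPKM in replicate 3 and 41.5, 52.3 and 52.7 at day 25. Day 16 replicate 3 was the highest of its age in all 3 genes, yet far below the lowest day 25 library. The changes of MYLPF and MYH3 were 8.32 ± 0.71 (SE, adjusted p = 0.00022) and 9.24 ± 1.01 (SE, adjusted p = 0.00041). TNNT1, a troponin of slow fibres, rose from 3.75, 3.18 and 11.99 FPKM to 150.3, 210.2 and 199.7 FPKM. Of 30 tested genes of somites and skeletal muscle, 21 were called higher. The one called lower was SIX4, a homeobox factor of muscle precursors, at -1.28 ± 0.27 (SE, adjusted p = 0.0054). Of the 30 tested, 12 passed the filter only through day 25, MYH3 and TNNC2 among them, and so had to differ.

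Heart genes had no common direction, with 7 called higher and 5 lower of 24 tested and a median of -0.01. Neither share exceeded that of all genes. TNNI3, the troponin I of mature heart muscle, rose from 3.41, 2.54 and 9.73 FPKM to 12.7, 35.1 and 30.1 FPKM. TNNI1, the troponin I shared by slow skeletal and embryonic heart muscle, changed by 2.69 ± 0.49 (SE, adjusted p = 0.003). The factors GATA4 and TBX20 of the heart fields fell, from 10.96, 5.84 and 13.9 FPKM to 1.48, 1.2 and 1.3 FPKM and from 15.4, 13.4 and 26.3 FPKM to 5.09, 3.56 and 2.85 FPKM. HAND1, expressed in trophoblast, extraembryonic mesoderm and the left ventricle, read 200.5, 300.3 and 55.6 FPKM at day 16 and 34.9, 29.6 and 29.1 at day 25. MYL4, the atrial light chain, read 185, 107 and 148 FPKM at day 16 and 162, 192 and 179 at day 25, and the groups overlapped (adjusted p = 0.12). Without day 16 replicate 1 it was called higher, at 0.63 (adjusted p = 0.0346).

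Cartilage genes mostly rose. COL9A3, a chain of the collagen that decorates cartilage fibrils, read 1.05, 0.579 and 1.19 FPKM at day 16 and 49.7, 40.6 and 38.7 at day 25, a change of 5.65 ± 0.29 (SE, adjusted p = 9.2e-05). COL9A2, another chain of that collagen, changed by 4.42 ± 0.25 (SE, adjusted p = 0.00011). MGP, an inhibitor of calcification, read 0, 0 and 1.68 FPKM at day 16 and 120.4, 64.6 and 84.9 at day 25. IHH went against this direction. This Hedgehog ligand of growth cartilage, which is also made by visceral endoderm and gut, fell from 16.6, 11.1 and 22.5 FPKM to 0.479, 0.196 and 0.453 FPKM. In the sclerotome and cartilage list 15 of 23 were called higher and 3 lower, with a median of 2.02, and 5 passed the filter only through the day 25 libraries.

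In mesenchyme, OGN (osteoglycin), a small proteoglycan of connective tissue, rose from 0, 0.201 and 0.329 FPKM to 60.1, 40.8 and 44.5 FPKM, and APOD, a lipid carrier of fibroblasts, from 0.0716, 0.331 and 0.828 FPKM to 72.7, 74.01 and 77.2 FPKM. TWIST1, a factor of head and limb mesenchyme, went from 16.5, 7.14 and 18.3 FPKM to 204, 171 and 146 FPKM, a change of 3.78 ± 0.35 (SE, adjusted p = 0.00025). POSTN, a matrix protein, read 43.96, 26.1 and 83.5 FPKM at day 16 and 809, 353 and 379.9 at day 25, with day 25 replicate 1 well above the others. FN1, fibronectin, and PDGFRB, the PDGF receptor of mesenchyme and pericytes, fell, from 1677, 926 and 556 FPKM to 159.8, 135 and 128 FPKM and from 87.1, 70.3 and 59.8 FPKM to 19.3, 11.8 and 12.6 FPKM. The abundant collagen COL3A1 was not called, with 2799, 3010.2 and 2976 FPKM at day 16 and 5334, 3138 and 3001 at day 25, but was called higher by DESeq2 (adjusted p = 0.036) and with the length trend removed (edgeR, adjusted p = 0.035). The list had 15 genes called higher and 3 lower of 36, and 18 were not called. The count of lower genes was 5 without day 16 replicate 2 and 6 without day 25 replicate 1.

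Limb bud genes had 13 called higher and 3 lower of 25, with a median of 1.48, and 5 passed the filter only through the day 25 libraries. TBX15, a factor of limb and skin mesenchyme, rose from 0, 0.0747 and 0.05 FPKM to 7.78, 4.7 and 5.58 FPKM. MEIS1, a cofactor of HOX proteins in the proximal limb, went from 4.62, 1.85 and 7.9 FPKM to 27.9, 28.9 and 28.1 FPKM. GLI3, which patterns the limb bud across its width, fell from 18.8, 12.5 and 14.4 FPKM to 3.43, 2.5 and 3.16 FPKM. FGF10, the signal from limb mesenchyme to ectoderm, fell too, by 1.98 ± 0.51 on the log2 scale (SE, adjusted p = 0.012).

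The HOX genes, which mark position from head to tail in the order of their paralog numbers, had called rises at each level of the axis. HOXA4 (chromosome 4, 68903112 to 68904155, plus strand) read 4.56, 1.7 and 5.37 FPKM at day 16 and 61.3, 49.2 and 47.7 at day 25, a change of 3.90 ± 0.41 (SE, adjusted p = 0.00036). HOXC4 went from 11.8, 5.03 and 10.1 FPKM to 71.8, 65.1 and 65.1 FPKM. Of paralogs 1 to 5, 9 of 13 were called higher and none lower, with a median of 2.0. HOXC6 rose from 13.7, 7.25 and 12.8 FPKM to 54.9, 46.5 and 47.6 FPKM and HOXC9 from 5.09, 3.52 and 4.72 FPKM to 24.5, 18.5 and 18.5 FPKM. Of paralogs 6 to 9, 5 of 10 were called higher, with a median of 1.41. HOXB4 and HOXB9 had lower means at day 25. Their values were 8.58, 11.5 and 11.8 FPKM at day 16 and 9.12, 5.79 and 4.33 at day 25 for HOXB4 and 31.2, 18.2 and 20.6 FPKM at day 16 and 18.2, 12.1 and 11.6 at day 25 for HOXB9, and neither difference was called. With the length trend removed both were called lower (adjusted p = 0.043 and 0.036), and HOXB9 was also called lower by limma. Among paralogs 10 to 13, 4 of 9 genes were tested and 2 were called, HOXD10 at 3.06 ± 0.46 (SE, adjusted p = 0.0013) and HOXC10 at 2.15 ± 0.51 (SE, adjusted p = 0.0089). HOXD13, the last gene of its cluster, read 1.91, 1.63 and 4.04 FPKM at day 16 and 3.6, 1.85 and 2.54 at day 25.

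Retinoic acid, made from vitamin A, sets HOX boundaries and neural differentiation. Its cytoplasmic binding proteins were among the strongest and most abundant rises. CRABP1 (chromosome 18, 29798106 to 29805167, plus strand) read 59.9, 25.4 and 54.5 FPKM at day 16 and 1455, 1681 and 1556 at day 25, and CRABP2 read 107, 38.8 and 129 FPKM at day 16 and 2320.0, 2288 and 2065 at day 25. The changes were 5.22 ± 0.35 (SE, adjusted p = 0.00014) and 4.75 ± 0.44 (SE, adjusted p = 0.00025), and in both the lowest day 25 library was more than 10 times the highest day 16 library. RXRA, a nuclear receptor partner, fell from 12.2, 17.1 and 9.91 FPKM to 4.6, 3.05 and 2.55 FPKM. ALDH1A2, the main enzyme that makes retinoic acid in the embryo, overlapped between the ages, with 19.7, 6.8 and 27.8 FPKM at day 16 and 9.56, 5.98 and 6.61 at day 25 (adjusted p = 0.058). It was called lower without day 16 replicate 2, at -1.52 (adjusted p = 0.0019), and by DESeq2 (adjusted p = 0.024). In all 11 of 18 tested pathway genes were called higher and 2 lower. The count of lower genes was 4 without day 16 replicate 3 and 1 without day 16 replicate 1 or day 25 replicate 2 or 3.

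Among vessel genes more were called lower than higher at day 25, and these counts moved with single libraries. KDR, the main VEGF receptor of endothelium, read 68.2, 55.4 and 72.6 FPKM at day 16 and 7.07, 4.99 and 4.37 at day 25, a change of -3.45 ± 0.20 (SE, adjusted p = 0.00011). LYVE1 and STAB2, hyaluronan receptors of lymphatic, sinusoidal and yolk sac endothelium, fell from 17.1, 14.8 and 43.3 FPKM to 0.905, 0.636 and 0.755 FPKM and from 6.03, 5.27 and 22.6 FPKM to 0.295, 0.151 and 0.265 FPKM. Day 16 replicate 3 was highest in all 3. ENG, a TGF-beta coreceptor, rose from 2.9, 1.62 and 4.84 FPKM to 8.3, 8.03 and 7.83 FPKM. Of 27 tested genes, 14 were called lower and 2 higher. The count of lower genes was 7 without day 25 replicate 2 and 8 without day 25 replicate 3, and 6 genes were called higher without day 16 replicate 3 and 1 without day 16 replicate 1 or day 25 replicate 3. In the intermediate mesoderm, SIX2, which keeps nephron progenitors and also marks head mesenchyme, rose from 0.301, 0.194 and 0.33 FPKM to 15.7, 13.5 and 14.6 FPKM, a change of 5.86 ± 0.23 (SE, adjusted p = 5.8e-05). GATA3, shared by nephric duct and trophoblast, fell from 24.2, 74.997 and 9.003 FPKM to 2.8, 4.13 and 3.64 FPKM. That list had 6 genes called higher and 8 lower of 21, close to the 30.2% and 32.5% of all genes.

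Interferon-stimulated genes rose together. At day 16 the ruminant trophoblast secretes interferon tau, the signal of pregnancy to the mother, and the genes below are classic targets of interferons. IFI6 (chromosome 2, 238537980 to 238539929, plus strand), a small membrane protein, read 0, 1.75 and 2.11 FPKM at day 16 and 393, 296 and 287 at day 25. ISG15 (chromosome 12, 49537787 to 49538733, minus strand), a ubiquitin-like modifier, read 0.794, 2.11 and 3.5 FPKM at day 16 and 161, 169.8 and 151 at day 25. MX1, an antiviral GTPase, read 0.841, 1.32 and 2.45 FPKM at day 16 and 47.5, 19.1 and 16.5 at day 25. The 3 changes were 8.09 ± 0.97 (SE, adjusted p = 0.00057), 6.35 ± 0.50 (SE, adjusted p = 0.00018) and 4.29 ± 0.54 (SE, adjusted p = 0.00068). MX1 was highest in day 25 replicate 1. IRF9, part of the factor complex that binds interferon response elements, rose from 3.73, 4.88 and 4.17 FPKM to 31.7, 25.8 and 28.5 FPKM. Of 28 tested genes of 32, 21 were called higher and 3 lower, with a median of 2.27. Of these 8 passed the filter only through day 25. The lower genes included TRIM25, a ubiquitin ligase that also acts outside this response, with 15.5, 18.5 and 12.5 FPKM at day 16 and 3.76, 2.01 and 2.56 at day 25. B2M, the light chain of class I antigen presentation, read 494, 1757 and 50.9 FPKM at day 16 and 186, 152 and 154 at day 25. Its day 16 libraries had the same order as the trophoblast genes, and it was not called (adjusted p = 0.1). It was called lower without day 16 replicate 3 (-2.69, adjusted p = 0.0022), in the fit of 12 libraries and with the length trend removed.

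Markers of cells that could accompany an embryo were read beside this. Of 34 leukocyte genes, 15 were tested, with 7 called higher and 4 lower (2 lower without day 25 replicate 1 or 2). The list's mean log2(FPKM + 1) was 1.85, 1.87 and 1.66 in the day 16 libraries and 2.33, 2.40 and 2.48 in the day 25 libraries. C1QB, a complement chain of macrophages, rose from 0, 0 and 0.171 FPKM to 4.25, 8.93 and 8.86 FPKM, and CD68, a lysosomal protein of macrophages and other phagocytic cells, from 2.85, 3.44 and 6.46 FPKM to 31.8, 28.97 and 34.5 FPKM. LCP1, a leukocyte plastin, fell from 16.8, 64.8 and 2.26 FPKM to 0.605, 1.11 and 1.11 FPKM and had the trophoblast order at day 16. PTPRC, the pan-leukocyte phosphatase, stayed between 0 and 0.337 FPKM in the 6 libraries. Among 22 uterine genes, PAEP, PGR, ESR1 and PIGR had no count in any of the 6 libraries. They were picked after their values were seen and do not stand for the list, whose tested members had signal at both ages. Of the 13 that were tested, 4 were called higher and 4 lower, 30.8% each way and close to the 30.2% and 32.5% of all genes. Their mean log2(FPKM + 1) was 4.78, 4.66 and 3.94 in the day 16 libraries and 3.71, 4.20 and 4.13 in the day 25 libraries. The part of these cells in other results was not tested.

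Glycolytic and hypoxia genes were lower at day 25, with 24 of 33 called lower, 2 higher and a median of -1.23. SLC16A1, the lactate transporter MCT1, read 142, 124 and 96.4 FPKM at day 16 and 9.28, 10.4 and 9.48 at day 25, a change of -3.5 ± 0.21 (SE, adjusted p = 0.00011). NDRG1, a hypoxia-induced gene, fell from 129, 95.7 and 71.3 FPKM to 9.65, 8.91 and 10.4 FPKM. ENO2, the neuronal enolase, rose from 2.64, 1.01 and 2.35 FPKM to 9.71, 9.94 and 8.73 FPKM. GAPDH was not called, with 2954, 2170.5 and 1951 FPKM at day 16 and 2466, 2744 and 2639 at day 25.

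Ribosomal protein genes were higher. RPL31, a protein of the large ribosomal subunit, read 2093, 2116 and 2253 FPKM at day 16 and 8245, 10307 and 9330.3 at day 25, a change of 2.25 ± 0.17 (SE, adjusted p = 0.00017). RPL22 went from 752, 786 and 946 FPKM to 2839.9, 3669 and 3587 FPKM. Of 61 tested ribosomal protein genes, 60 were called higher and none lower, with a median of 1.40. Reads of these genes can be shared with processed pseudogenes, so single values are uncertain. Nuclear genes of the respiratory chain had 39 of 62 called higher and 6 lower, with a median of 0.85. NDUFB3, a small subunit of complex I, rose from 68.8, 105 and 82.004 FPKM to 283, 294 and 314 FPKM. NDUFS1, the largest subunit of that complex, fell from 30.1, 42.9 and 41.3 FPKM to 20.04, 16.5 and 18.3 FPKM. Both lists are mostly of short mRNAs, with median implied lengths of 558 and 550 bases against 1642 for all genes. With the length trend removed, 55 ribosomal genes were still called higher with a median of 0.95, and 22 of the 62 respiratory genes with a median of 0.28. The respiratory share called higher is near the 30.7% of all genes in that fit. Only 4 of the 62 were called lower, however, beside 30.2% of all genes. Of the 13 mRNAs encoded in mitochondrial DNA, 8 were called higher and none lower (1 without day 16 replicate 3), with a median of 1.31. COX3, a core subunit of cytochrome oxidase, read 1792, 2165 and 1392 FPKM at day 16 and 5289, 6743 and 7561 at day 25. CYTB, cytochrome b of complex III, read 4186, 4514 and 3573 FPKM at day 16 and 8478, 11676 and 11462 at day 25. With the length trend removed 6 were called higher and 1 lower, with a median of 0.64.

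**Figure D4:**
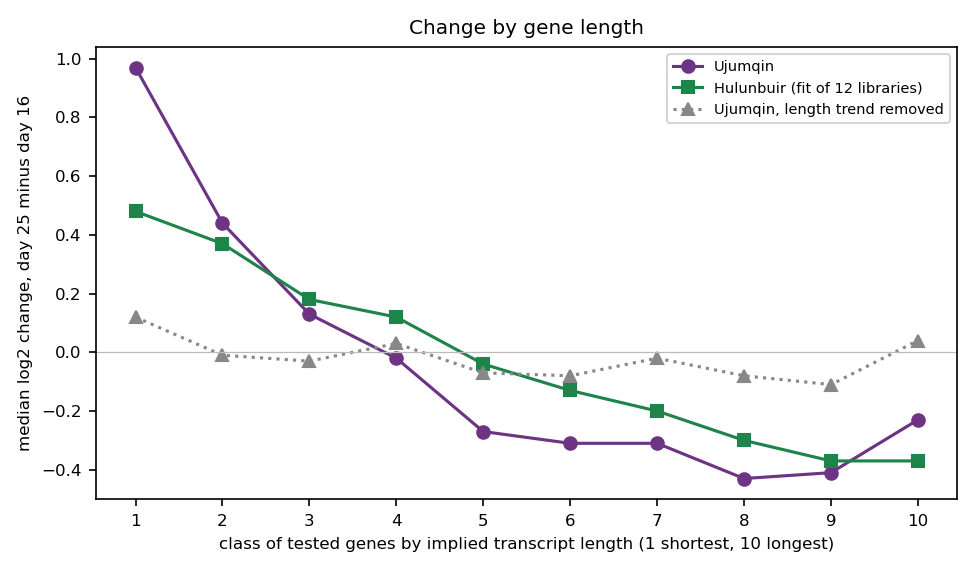
Median log2 change from day 16 to day 25 (y axis) in 10 equal classes of the tested genes by implied transcript length (x axis, shortest to longest). Purple circles are Ujumqin, green squares Hulunbuir and grey triangles Ujumqin with the length trend removed. The Ujumqin median runs from 0.97 in the shortest class to -0.43 in class 8, and stays between -0.11 and 0.12 once the trend is removed.

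Insulin-like growth factor genes were called lower more often than higher. IGFBP2, an IGF-binding protein, rose from 615, 255 and 287 FPKM to 1035, 1392 and 1350.2 FPKM. IGF2R, the receptor that clears IGF2, fell from 146, 109 and 136 FPKM to 26.04, 15.8 and 14.9 FPKM, a change of -2.66 ± 0.23 (SE, adjusted p = 0.00023). IGF2 itself was not called, with 724, 313 and 664 FPKM at day 16 and 344, 301 and 305 at day 25, but was called lower without day 16 replicate 2, at -0.97 (adjusted p = 0.0019), and with library totals, DESeq2 and the fit of 12 libraries. The list had 2 called higher and 7 lower of 16, with a median of -0.66, and 11 were lower without day 16 replicate 2. The count of higher genes was 1 without day 25 replicate 2 or 3. Of 49 cell cycle genes, 13 were higher and 12 lower, both below the shares of all genes. The second count was 19 without day 16 replicate 2, and 6 without day 25 replicate 2 or 3. UBE2C, which drives exit from mitosis, rose from 104, 107 and 145 FPKM to 301, 286 and 282 FPKM, and KIF11, the spindle kinesin, fell from 35.2, 28.7 and 50.8 FPKM to 17.6, 13.3 and 16.6 FPKM. Because the embryos were dissociated, genes induced by handling were read as well. Of 35 tested, 4 were higher and 7 lower, both below the shares of all genes. Without day 16 replicate 3 the second count was 15, without day 25 replicate 2 or 3 it was 4, and without day 16 replicate 2 the first was 7. IER3, an early response gene, rose from 46.1, 36.1 and 22.3 FPKM to 129.9, 75.8 and 69.3 FPKM, and KLF6, a factor of the same class, fell from 40.4, 68.8 and 24.2 FPKM to 15.8, 6.01 and 5.96 FPKM.

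The same ages in Hulunbuir embryos showed where the Ujumqin change differed. Over the same genes, a fit of all 12 libraries called 2654 genes higher and 3071 lower at day 25 in Hulunbuir. These were set beside the 8516 Ujumqin calls of the fit of 6 libraries. Genes called in both breeds in the same direction numbered 4442, which was 52.2% of the Ujumqin and 77.6% of the Hulunbuir calls. Another 160 were called in opposite directions. The calls came from unlike fits and the genes were filtered on Ujumqin alone, so these percentages are not comparable with each other. The difference between the breeds' changes (interaction) was called for 2886 genes, 21.3% of those tested, 1304 (9.61%) more positive in Hulunbuir and 1582 (11.7%) more negative. Erythroid genes stood at 30 of 31, all more positive in Hulunbuir, where their median change was 2.98 against -1.19 in Ujumqin. Leaving out each of the 12 libraries in turn left 27 to 30 of them. HBZ averaged 87.1 ± 31.1 FPKM at day 16 and 15669 ± 1556 at day 25 in Hulunbuir (SD, n = 3), and 1618 ± 1444 and 2029 ± 269 in Ujumqin. Yolk sac and liver products had 31 of 39 more positive in Hulunbuir, with 28 to 33 when a library was left out. Their median change was 1.19 there and -2.09 in Ujumqin. In the other direction 35 of 61 ribosomal genes rose less in Hulunbuir, but between 15 and 43 when a library was left out. The count was 15 without Ujumqin day 25 replicate 2 or 3, and 18, 20 and 18 without Hulunbuir day 25 replicate 1, 2 and 3. Mitochondrially encoded genes had 9 of 13 more negative in Hulunbuir, where their median change was -0.60. Of 35 genes induced by handling, 6 were more positive and 8 more negative in Hulunbuir, beside 9.61% and 11.7% of all genes. These counts were 6 to 8 and 4 to 9 when a library was left out. The part of handling in the breed difference was not tested. Epiblast, HOX 10 to 13 and nuclear respiratory chain genes, with 13, 4 and 62 tested, had at most 2 called interactions a list. The maximum was 5 when a library was left out. With 4 genes tested and 21.3% of all genes called, the HOX count cannot show agreement between the breeds. Neuron, neural progenitor and primitive streak lists were low too, each with 2 called, of 28, 17 and 20 tested. LIN28A averaged 348 ± 168 FPKM at day 16 and 3.25 ± 0.368 at day 25 in Hulunbuir, and NR6A1 31.3 ± 11.5 FPKM at day 16 and 0.854 ± 0.353 at day 25, and neither interaction was called (adjusted p = 0.88 and 0.11).

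**Figure D5:**
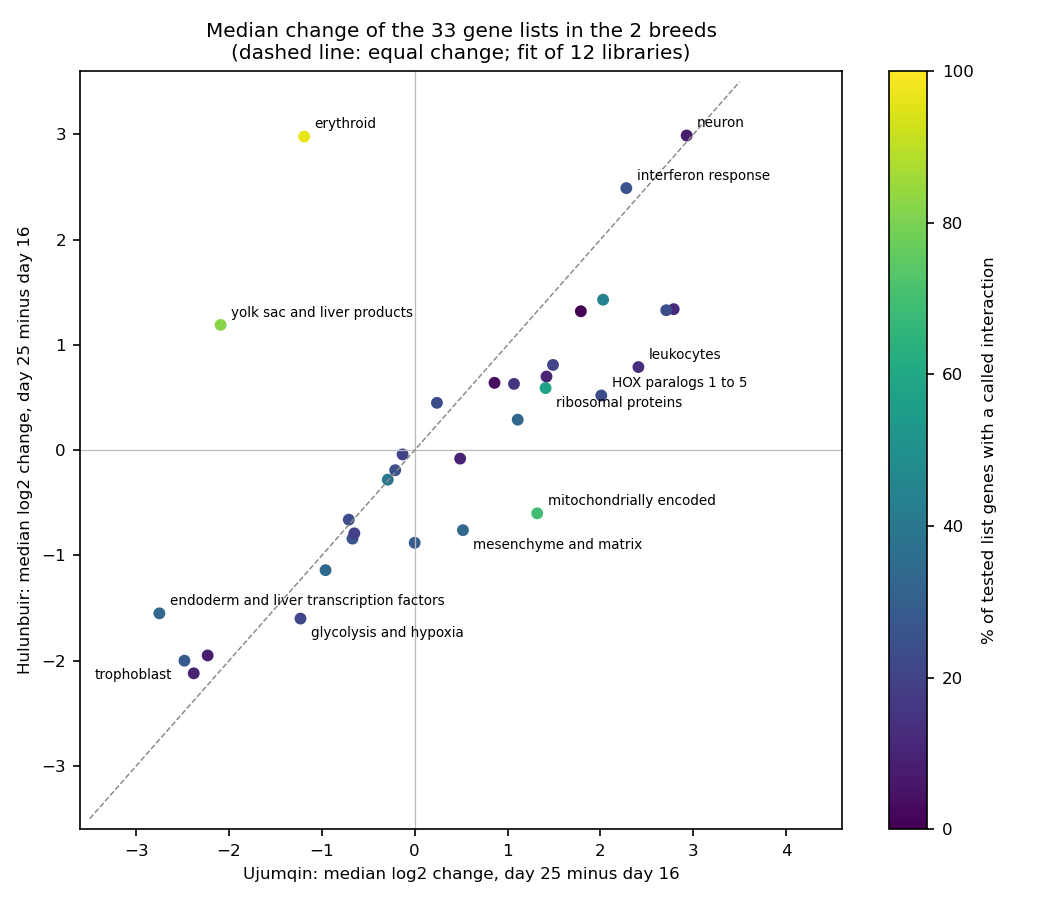
Median log2 change from day 16 to day 25 of each of 33 lists in Ujumqin (x axis) and Hulunbuir (y axis), both from the fit of 12 libraries. Colour is the percentage of tested list genes with a called interaction, and the dashed line marks equal change. Erythroid genes and yolk sac and liver products lie in the upper left, negative in Ujumqin and positive in Hulunbuir, and the mitochondrially encoded list lies in the lower right.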

How the data were processed

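The table deposited by the authors holds counts and FPKM per gene and library, per the file headers. The submitters' processing notes name cutadapt 1.9, FastQC and the build Oar_v3.1. The aligner, counting tool and strand setting were not given in the sources used here, so reads of overlapping genes cannot be told apart. The deposited FPKM writes a gene without counts as 0.0001, given here as 0. Implied transcript length was the count divided by FPKM and library total.

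Counts of the 6 Ujumqin libraries were tested with edgeR 4.0.16 (TMM scaling, quasi-likelihood test, two-sided, Benjamini-Hochberg over 13571 genes). The interaction used a fit of 12 libraries with 4 group means. limma 3.58.1 and DESeq2 1.42.0 served alternatives, and the scripts were tested on simulated data. Replicates of a group differed by more than sampling noise (chi-square per degree of freedom at least 33.1), so none was counted as a duplicate.

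The comparison and the 33 lists were chosen with earlier results of these data known. Some named genes had the largest called changes at 5 FPKM or more without overlap between the ages, so their separation was fixed by that rule. Others had the largest called changes in a list, the highest means among its uncalled genes, or the highest means of an age. LIN28B, SALL4, POU5F1, NANOG, PAG4, KRT8, IRF9, PTPRC, PAEP, PGR, ESR1 and PIGR were chosen after their values were seen. Some genes that the rule names are not reported here. Of the genes tested, 11549 had a symbol.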

Additional observations from a re-analysis of the deposited data

Results flagged for a closer look

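Groups of 3 libraries were too small for the check on single samples that stand apart. The values below are genes whose change from day 16 to day 25 differed between the breeds in the fit of 12 libraries, given as the Hulunbuir change minus the Ujumqin change on the log2 scale. The first 8 had the smallest adjusted p among genes with at least 5 FPKM in 1 of the 4 groups, and their levels are means ± SD of 3 libraries.

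SLC22A17, the receptor for lipocalin 2, averaged 7.69 ± 0.667 FPKM at day 16 and 61.4 ± 1.8 at day 25 in Ujumqin and 21.7 ± 1.28 FPKM at day 16 and 40.1 ± 1.99 at day 25 in Hulunbuir, a difference of -2.42 ± 0.16 (SE, adjusted p = 7.1e-05). BLVRB, a reductase abundant in red cells, averaged 73.3 ± 26.7 FPKM at day 16 and 81.8 ± 9.65 at day 25 in Ujumqin and 13.4 ± 0.643 FPKM at day 16 and 369 ± 8.98 at day 25 in Hulunbuir, a difference of 4.30 ± 0.31 (SE, adjusted p = 0.00012). FHL2, a LIM domain protein of the heart, averaged 42.4 ± 5.21 FPKM at day 16 and 26.6 ± 2.39 at day 25 in Ujumqin and 21.04 ± 2.23 FPKM at day 16 and 108 ± 3.38 at day 25 in Hulunbuir, a difference of 2.72 ± 0.20 (SE, adjusted p = 0.00012). ITGA7, a laminin-binding integrin of muscle, averaged 1.15 ± 0.179 FPKM at day 16 and 3.21 ± 0.344 at day 25 in Ujumqin and 8.29 ± 0.373 FPKM at day 16 and 3.23 ± 0.368 at day 25 in Hulunbuir, so that the direction was opposite, with a difference of -3.15 ± 0.25 (SE, adjusted p = 0.00012). CREG1, a secreted glycoprotein, averaged 18.2 ± 4.78 FPKM at day 16 and 10.3 ± 0.985 at day 25 in Ujumqin and 4.96 ± 0.795 FPKM at day 16 and 39.8 ± 3.07 at day 25 in Hulunbuir, a difference of 3.53 ± 0.28 (SE, adjusted p = 0.00012). SLC22A4, an ergothioneine transporter, averaged 2.31 ± 0.534 FPKM at day 16 and 0.975 ± 0.112 at day 25 in Ujumqin and 0.348 ± 0.14 FPKM at day 16 and 10.3 ± 0.806 at day 25 in Hulunbuir, a difference of 5.78 ± 0.46 (SE, adjusted p = 0.00012). CARNS1, which makes carnosine, averaged 3.45 ± 1.91 FPKM at day 16 and 0.89 ± 0.185 at day 25 in Ujumqin and 0.382 ± 0.169 FPKM at day 16 and 15.3 ± 1.6 at day 25 in Hulunbuir, a difference of 6.92 ± 0.60 (SE, adjusted p = 0.00019). SLC39A8, a zinc and manganese importer, averaged 44.5 ± 29.7 FPKM at day 16 and 6.25 ± 0.667 at day 25 in Ujumqin and 5.68 ± 0.494 FPKM at day 16 and 49.5 ± 1.97 at day 25 in Hulunbuir, a difference of 5.61 ± 0.50 (SE, adjusted p = 0.00021).

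Other named genes differed too. Among red cell genes the difference was 6.79 for HBZ, 6.58 for AHSP, 6.97 for SLC4A1, 3.81 for CPOX and 2.40 for TFRC. For plasma protein and endoderm genes it was 4.61 for ALB, 3.93 for AHSG, 3.82 for ORM1, 2.58 for APOB, 4.53 for SERPINF2 and 3.77 for HNF4A, and GATA6 had -1.58. For trophoblast-type genes it was 4.33 for TSPAN1, 4.36 for PLBD1, 13.58 for FXYD4 and 5.18 for PPARG, and STAR had -1.28. FXYD4 had no count in the Ujumqin day 25 libraries, so its value depends on the prior count. Nervous system genes had -4.01 for OTX2, -2.12 for STMN2, -2.31 for FABP7 and -1.95 for ENO2, and ERBB3 had 1.76. Muscle and heart genes had -3.43 for TNNC2, -2.84 for TNNT1, -2.36 for TNNI1 and -1.24 for MYL4. For cartilage and mesenchyme genes it was -4.80 for MIA, -2.36 for COL9A3, -2.77 for COL9A2, -2.66 for TWIST1, -2.76 for POSTN and -1.82 for SIX2. Among limb and axis genes it was 4.96 for TBX15, -1.87 for MEIS1, 1.16 for GLI3, -1.61 for GLI1, -2.09 for HOXA4 and -1.84 for HOXC4. In the retinoic acid list it was -1.94 for CRABP1, -2.58 for CRABP2 and 1.61 for RXRA. Immune genes had 2.42 for ISG15, 3.97 for B2M, 5.31 for LCP1 and -2.43 for CD68. Ribosomal and mitochondrial genes had -1.17 for RPL31, -1.31 for RPL22, -1.88 for COX3 and -2.11 for CYTB. The remaining values were -0.96 for GAPDH, -1.85 for IGFBP2, 1.5 for PEG10, -0.79 for UBE2C and -2.47 for IER3. Of the 62 genes, 15 lost the call when 1 of the 12 libraries was left out (APOB, B2M, CRABP1, GAPDH, GATA6, GLI3, MEIS1, MYL4, OTX2, SIX2, STMN2, TBX15, TNNC2, TSPAN1 and UBE2C, with adjusted p up to 0.112), and the number lost was between 3 (without Hulunbuir day 16 replicate 2) and 14 (without Ujumqin day 25 replicate 3 or Hulunbuir day 25 replicate 1).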

How the results depend on the processing

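Counts of genes higher and lower at day 25 stayed within 1.5 times their main values of 4104 and 4412 under each alternative run: 2 other scalings and library totals, DESeq2 (4438 and 4562), voom with group weights, limma on log2(FPKM + 1) (3877 and 4777) or log2(FPKM + 0.1), 12 libraries in the fit, no filter (4063 and 4689 of 19881 genes), an FPKM minimum of 5 (3245 and 3462 of 9813) and the length correction. Leaving out a library gave 3369 to 4335 higher and 3345 to 4491 lower genes. The median change of all genes was -0.17 with library totals and 0.01 with upper-quartile scaling, against -0.07. The interaction count of 2886 was 3836 with DESeq2 and 2389 with voom, and leaving out a library gave 1599 (without Hulunbuir day 25 replicate 1) to 3314 (without Ujumqin day 16 replicate 3). Counts fell by over 1.5 times without Ujumqin day 25 replicate 2 or 3 (1667 and 1642) and without Hulunbuir day 25 replicate 1, 2 or 3 (1599, 1686 and 1642). They were above the main count without Hulunbuir day 16 replicate 2 or 3 (3143 and 3059). The reason for these moves was not tested.

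With a replicate block the counts were 3819 higher and 3889 lower, and 2701 for the interaction. The labels do not say whether libraries with the same number shared an animal or a batch. Their deviations from the group means correlated at -0.065, 0.102 and -0.055, and those of libraries with different numbers at -0.137 to 0.149. With 3 libraries a group these values cannot show whether anything was shared.

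Of 138 genes named, 17 changed their side of the threshold or their sign under at least 1 alternative, and 121 did not. Changes of sign concerned genes that were not called. AHSP ranged from -1.03 to 0.33 when a library was left out, the latter without day 16 replicate 3. With the length trend removed AHSP was called lower, at -1.56 (edgeR, adjusted p = 0.0497). EMX1 was at 0.50 with voom, 0.14 with limma on log2(FPKM + 0.1), 0.31 with the block, and from -1.37 to 1.24 (without day 16 replicate 2) when a library was left out. HBZ and BLVRB were at -0.21 and -0.046 with the length trend removed. The cause was not tested. Wide spread at day 16 limits what can be called for trophoblast, yolk sac and red cell genes, and 6310 genes with counts fell below the FPKM filter.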

Other observations

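Imprinted genes, which are read from 1 parental copy, had 5 called higher and 5 lower of 16 tested, close to the 30.2% and 32.5% of all genes. The count of lower genes was 3 without day 16 replicate 1 or any 1 of the day 25 libraries. DIRAS3, a small GTPase and growth suppressor, rose from 1.22 ± 0.387 to 42.7 ± 7.22 FPKM (SD, n = 3), a change of 5.23 ± 0.29 (SE, adjusted p = 0.00011). NNAT, a membrane protein of developing neurons, rose from 49.4, 28.8 and 35.1 FPKM to 260.0, 228 and 216 FPKM. DLK1, a Notch-like protein of mesoderm, read 23.2, 23.3 and 17.7 FPKM at day 16 and 67.9, 208 and 204 at day 25, and day 25 replicate 1 was the lowest of its age. PEG10, a retrotransposon-derived gene of trophoblast and yolk sac, fell from 428, 312 and 689.7 FPKM to 43.6, 40.1 and 45.2 FPKM, a change of -3.32 ± 0.28 (SE, adjusted p = 0.00021).

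Of 12 Hedgehog pathway genes, 2 were called higher (1 without day 16 replicate 1) and 5 lower. The shares were 16.7% and 41.7%, beside 30.2% and 32.5% of all genes, and the share called in either direction was close to the 62.8% of all genes. GLI1, the transcriptional target and effector of the pathway, rose from 4.17, 2.63 and 5.07 FPKM to 11.4, 9.8 and 9.998 FPKM, and PTCH1, the receptor and also a target, fell from 9.21, 6.66 and 18.9 FPKM to 1.34, 1.36 and 1.89 FPKM. Of 2625 genes that the table names by Rfam family (small structured RNAs), 262 were tested, and 109 were called higher and 2 lower at day 25. Of all genes tested 30.2% were called higher and 32.5% lower, and of the 1360 in the shortest length class 666 were higher and 124 lower. The part of the length trend in the Rfam counts was not tested.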
